A study of Rattus norvegicus with 9 samples.

Results

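Untreated zona glomerulosa cells of the rat adrenal gland, kept in medium with neither stimulus, are described here by the level of every transcript measured rather than by change. Their members are the 3 control arrays of a series of 9, chosen by title, 1 from each of 3 independent cell preparations. Cells had been freed from the gland by enzyme and by mechanical dispersion, and all 9 tubes were kept for 2 h at 37 °C under 5% CO2 in DMEM:F12 medium that held albumin without fatty acids at 0.5%. The other 6 arrays came from the same preparations, 3 with angiotensin II (Ang II, 100 nM) and 3 with raised potassium (16 mM). The sources used here do not state the strain, sex or age of the rats or how many were pooled. A tube of dispersed cells is a mixture, so fewer cells of a type and less RNA per cell cannot be told apart in any value that follows.

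The zona glomerulosa is the outermost layer of the adrenal cortex and the source of aldosterone, the hormone that makes the kidney retain sodium and excrete potassium. Cholesterol is carried to the inner mitochondrial membrane by Star, cut by Cyp11a1, and converted by Hsd3b and Cyp21a1 to deoxycorticosterone, which Cyp11b2 turns into aldosterone. Glomerulosa cells sense Ang II through the type 1 receptor and potassium through their membrane potential, which TASK-type potassium channels hold negative and which T-type and L-type calcium channels read out. The next layer inward, the zona fasciculata, makes corticosterone with Cyp11b1, and the rat adrenal has no appreciable Cyp17a1, the enzyme that leads to cortisol.

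Signals were read from an Affymetrix Rat Genome 230 2.0 chip as 1 linear value for each of 31042 probe sets that are not spike-in controls. A single gene symbol was known for 20826 probe sets, covering 14217 genes, and a gene is represented below by its probe set of highest mean in the controls. Levels are given as the signals of control 1, control 2 and control 3 in that order, or as the within-array percentile, the share of probe sets on the array at or below that signal, as the median of the 3 controls. A signal depends on how well its probes bind, so ranks order signals and not transcripts, and no gene is said to be more expressed than another. The trimmed mean signal was 500.2 on each control, and the highest signals were 39071, 37854 and 40329. Control 2 stood apart at the low end, where its 1st percentile of signal was 8.43 against 2.55 and 2.91 in the other two. Rank correlations between pairs of controls lay between 0.923 and 0.949 over all probe sets, as a description of arrays that share probes.

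Spread between the controls fell with signal. Probe sets with a mean signal under 50 had a median coefficient of variation of 66.7%, those from 500 to 1000 of 11.1% and those over 20000 of 5.28%. The number of arrays limits the precision of every value. To say which signals stood above what silent genes give, a reference panel of 98 probe sets of 91 genes was used: odorant, taste and vomeronasal receptors and genes of retina, lens, pancreas, sperm, skin, skeletal muscle and other remote tissues. A probe set was called above the reference range if it passed the panel's 95th percentile (669, 677 and 620.0 in the 3 controls) on all 3 controls. By that rule 6188 probe sets (19.9%) and 4537 genes (31.9%) were above it. The threshold rested on 5 bright probe sets of Myh1, a skeletal muscle myosin. Without them, an alternative added after the data were seen, it fell to 100.5, 205 and 148 and the counts rose to 13373 probe sets (43.1%) and 8425 genes (59.3%). The main rule is therefore strict, and a gene under it is not shown to be absent.

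**Figure D1:**
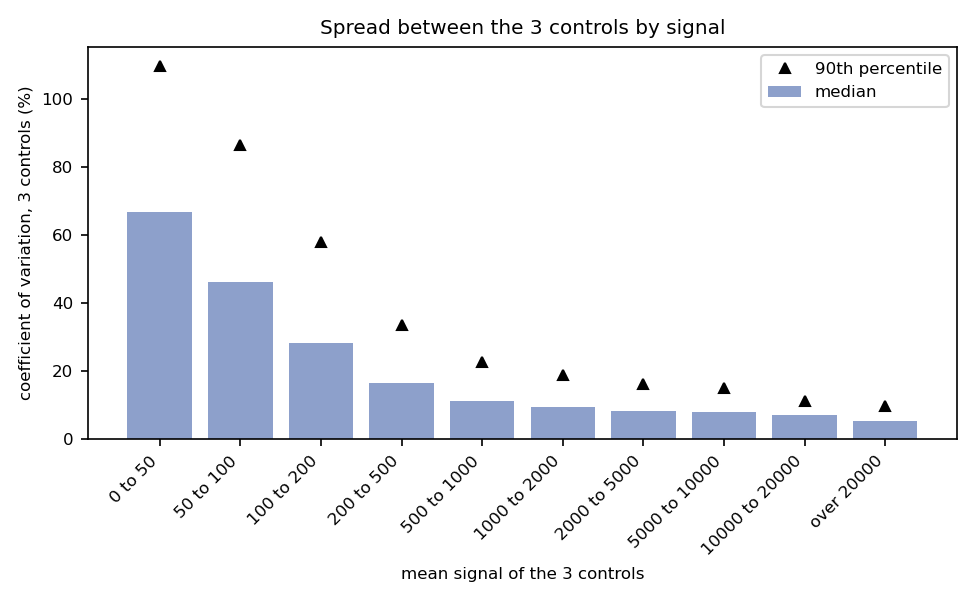
Coefficient of variation of the 3 controls (y axis, percent) by mean signal of the probe set (x axis), with bars for the median probe set and triangles for the 90th percentile. The median falls from 66.7% below a signal of 50 to 5.28% above 20000.

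Ribosomal proteins, mitochondrial transcripts and steroid enzymes filled the top of the ranking. Of the 30 genes of highest percentile, 16 coded for cytosolic ribosomal proteins, namely Rpl26, Rps29, Rpl3, Rpl7a, Rps23, Rpl37a, Rpl5, Rpl27a, Rps6, Rpl23, Rps3a, Rps24, Rpl19, Rpl6, Rpl27 and Rpl35a. COX2 and COX1, subunits of cytochrome oxidase encoded in mitochondrial DNA, were the 1st and 4th. Steroid enzymes and their electron carrier took 4 places, Akr1b7, Fdx1, Hsd3b1 and Cyp11a1. The mitochondrial chaperonin pair Hspd1 and Hspe1, B2m (the light chain of class I histocompatibility molecules), Eef1a1 (the elongation factor that delivers tRNA), the interferon-inducible Ifi27 and Ifi27l2b, the stress transcription factor Atf4 and the chemokine Cxcl1 made up the rest. Cxcl1, which draws neutrophils, had signals of 23119.8, 21102 and 23538 in cells that had received no stimulus. Atf4 stood at 28123, 26602 and 25534. No control stood apart for either gene.

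The border of this group was not sharp. Rpl35a, the last inside it, had a mean signal of 22544, and Rpl22, the first outside, one of 21678. Ranking by the 6 stimulated arrays instead returned 27 of the 30 genes. Among the 100 probe sets of highest rank, 49 had no single gene symbol and are counted but not named. The 100 brightest probe sets held 10.4%, 10.3% and 11.0% of all signal in the 3 controls, and the 1000 brightest held 43.5%, 41.5% and 43.8%.

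Promoter sequences of 5 genes above the reference range are given because their levels stood out and a known motif lies near their start sites. Each runs from 250 bases before to 50 bases after the start of the gene in RefSeq (assembly GRCr8), 5′ to 3′ on the gene's own strand. Capitals mark exact matches on either strand to 5 motifs. The Sp1 GC box, GGGCGG, was also searched and is left in lower case, with matches in Dusp1 and Hspe1. The extended half-site bound by Nr5a1 was searched as AAGGTCA. For the TATA box of core promoters the letters were TATAAA. The cAMP response element, bound by factors of the Creb family, was searched as TGACGTCA. A site of the NF-kB kind is the run of capitals in Cxcl1, and a heat shock element, 3 alternating units of the binding site of heat shock factors, lies within the first run of capitals in Hspe1. Cyp21a1 and Akr1b7 are shown as the steroid genes with the half-site, Cxcl1 for the NF-kB kind of site, Dusp1 as an immediate early gene with the cAMP response element and Hspe1 for the heat shock element.
Cyp21a1, chr20:4028141-4028440, plus strand: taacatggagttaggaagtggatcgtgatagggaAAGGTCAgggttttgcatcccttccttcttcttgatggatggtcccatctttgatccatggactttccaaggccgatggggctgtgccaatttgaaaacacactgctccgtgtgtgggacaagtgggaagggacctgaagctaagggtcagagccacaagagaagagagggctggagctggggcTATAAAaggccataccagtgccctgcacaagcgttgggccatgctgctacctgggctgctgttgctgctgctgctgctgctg
Akr1b7, chr4:64043720-64044019, plus strand: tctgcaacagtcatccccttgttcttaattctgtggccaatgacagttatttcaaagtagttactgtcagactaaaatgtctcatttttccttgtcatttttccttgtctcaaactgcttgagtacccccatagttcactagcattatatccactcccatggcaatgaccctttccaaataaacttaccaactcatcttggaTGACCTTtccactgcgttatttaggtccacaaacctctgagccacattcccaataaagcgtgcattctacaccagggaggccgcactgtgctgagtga
Cxcl1, chr14:17479272-17479571, minus strand: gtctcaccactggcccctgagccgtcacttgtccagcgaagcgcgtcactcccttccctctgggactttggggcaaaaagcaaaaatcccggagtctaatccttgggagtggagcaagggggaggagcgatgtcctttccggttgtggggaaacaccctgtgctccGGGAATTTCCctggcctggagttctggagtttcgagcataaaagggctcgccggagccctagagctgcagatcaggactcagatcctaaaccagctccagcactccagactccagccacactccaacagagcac
Dusp1, chr10:17184603-17184902, plus strand: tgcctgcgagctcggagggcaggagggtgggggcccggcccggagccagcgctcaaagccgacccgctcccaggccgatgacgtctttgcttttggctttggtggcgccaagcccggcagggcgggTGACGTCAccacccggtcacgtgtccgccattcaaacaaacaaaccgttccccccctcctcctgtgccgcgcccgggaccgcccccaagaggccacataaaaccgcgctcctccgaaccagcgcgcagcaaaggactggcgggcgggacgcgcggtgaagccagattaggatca
Hspe1, chr9:64084077-64084376, plus strand: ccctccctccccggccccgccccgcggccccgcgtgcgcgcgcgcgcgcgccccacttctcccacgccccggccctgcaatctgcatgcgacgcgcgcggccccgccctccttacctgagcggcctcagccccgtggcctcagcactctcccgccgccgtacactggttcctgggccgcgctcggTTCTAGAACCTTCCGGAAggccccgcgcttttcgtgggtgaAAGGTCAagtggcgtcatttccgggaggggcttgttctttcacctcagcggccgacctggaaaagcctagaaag

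In Cyp21a1 the half-site begins 216 bases before the start and the TATA box 32 bases before it. Akr1b7 carries the half-site on the opposite strand, 48 to 42 bases before the start. The Cxcl1 site lies from -84 to -75 relative to the start, and the Dusp1 element from -124 to -117. In Hspe1 overlapping matches on the 2 strands form 1 run of capitals from 65 to 48 bases before the start, and a half-site follows at 24 to 18 bases before it. Over 24206 promoters of the same length with 1 entry per gene, the half-site was in 4.22%, the TATA box in 14.3%, the cAMP response element in 1.91%, the NF-kB kind of site in 0.0868% and the heat shock element in 0.702%. Of the 12 steroid synthesis genes above the reference range that had an entry, 2 (16.7%) held the half-site, Cyp21a1 and Akr1b7. The share was similar in respiratory chain and ATP synthase genes, 11 of 65 (16.9%). Among glomerulosa markers 0 of 10 held it, and among cholesterol genes 0 of 16. The heat shock element was in 4 of 19 heat shock and folding genes above the range: Hsph1, Hspd1, Hspe1 and Dnaja1. The cAMP response element was in 4 of 18 immediate early genes above it: Jund, Ier2, Maff and Dusp1. Among the 82 of the 100 highest-ranking genes with an entry, the NF-kB kind of site was in 3: Cxcl1, Prdx3 and Nfkbia. The Sp1 GC box was in 53 of the 82 (64.6%), against 35.9% of all promoters. A match describes the letters in this window only.

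Gene lists differed widely in rank. The median percentile over all named genes was 65.9. Cytosolic ribosomal proteins had a median of 99.7, heat shock and folding proteins 98.0, the respiratory chain and ATP synthase 97.6, steroid synthesis 97.0, immediate early transcription factors 96.9, antioxidant enzymes 96.6 and proteasome subunits 95.6. Lower among the functional lists stood potassium channels at 32.3, hormone and neurotransmitter receptors at 40.1, and sodium, chloride and proton transport at 40.7. Markers of kidney and liver had a median of 24.2, close to the 23.3 of the reference panel, and 0 of 17 passed the reference range with or without Myh1 in the panel.

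**Figure D2:**
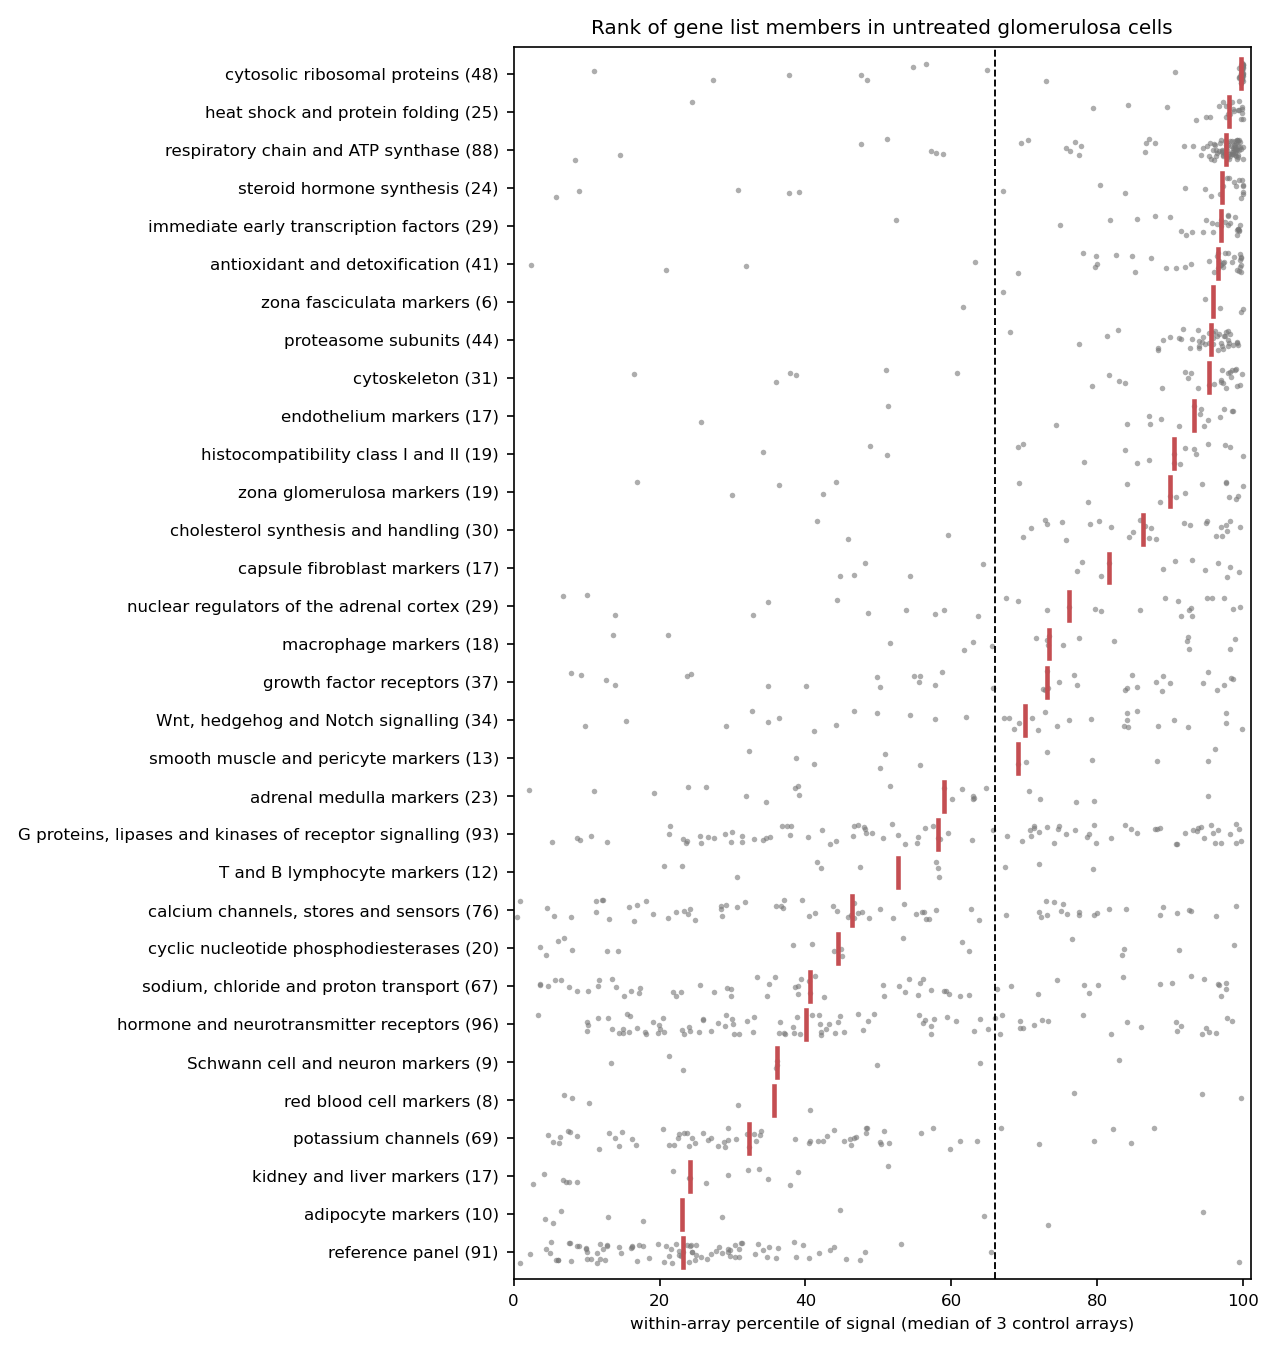
Within-array percentile of signal (x axis, median of the 3 controls) of each matched member of each gene list (y axis, number of members in brackets), with a red bar at the list's median and a dashed line at the median of all named genes. Housekeeping, steroid, stress and immediate early lists lie near the right edge and receptor and channel lists to the left of the dashed line.

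Steroid synthesis genes ranked high, and the path to aldosterone gave bright signals at each step that a probe set of 1 gene could read. Of 24 matched genes, 18 were above the reference range, against 31.9% of all named genes. At or above the 99th percentile stood 8, against 211 of 14217 named genes. The list also holds genes of uptake and signalling. Scarb1, Mrap, Acbd3 and Prkar1a were among the 18, and Prkar1a among the 8. Star, which delivers cholesterol to the inner mitochondrial membrane, had signals of 20542, 16584 and 19492. Its other probe set read 16375, 14407 and 15455, so both were bright. Cyp11a1, the side chain cleavage enzyme that makes pregnenolone, stood at 23768, 24694 and 25674. Fdx1, the ferredoxin that feeds electrons to mitochondrial P450 enzymes, was at 26746, 23448 and 30044, although a further probe set of the gene gave only 901, 746 and 795.

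Hsd3b1, which converts pregnenolone to progesterone, read 25877, 23835 and 25886. The Hsd3b genes are near copies of each other, so this probe set may take in signal from relatives, and a probe set assigned to Hsd3b1, Hsd3b2 and Hsd3b3 together read 149, 187 and 170.4. Cyp21a1, the 21-hydroxylase, was at 20939.5, 19651 and 21749. The 3 controls lay close together for each of these enzymes.

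Cyp11b1, the 11-beta-hydroxylase of the fasciculata, was the exception. Its single-gene probe set read 5174, 1839 and 2895, a mean of 3302 ± 1704 (SD, n = 3), high in control 1 and lowest in control 2. Cyp11b2, the aldosterone synthase, had no probe set of its own, and can be followed only through shared ones. A probe set assigned to Cyp11b1 and Cyp11b2 read 11697, 9611 and 11739. Another, assigned to Cyp11b1, Cyp11b2 and Cyp11b3, read 4587, 3494 and 3998. A probe set of Cyp11b1 and Cyp11b3 was dim, at 3.04, 20.2 and 36.3. How the bright shared signal divides between the 2 enzymes cannot be read from these probe sets.

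Enzymes of other steroid paths marked the limits of the programme. Cyp17a1, the 17-alpha-hydroxylase of cortisol and androgen synthesis, read 6.27, 20.6 and 6.01. Hsd3b5, a further member of the Hsd3b family, was at 3.5, 25.9 and 10.8, and Cyp19a1, the aromatase that makes oestrogen, at 12.5, 79.5 and 94.4. All 3 lay below the reference threshold in every control, with or without Myh1 in the panel. Akr1b7, an aldose reductase that clears the isocaproaldehyde left by side chain cleavage, had the highest-ranking signal of the list, at 29477, 27936 and 27524. Tspo, a cholesterol-binding protein of the outer mitochondrial membrane, stood at 14304, 14078 and 13879. Hsd11b2, which inactivates corticosterone in aldosterone target tissues, was just above the reference range at 874, 753 and 763, and Hsd11b1, which reactivates it, was under it at 281, 369 and 407. Mrap, the accessory protein that brings the ACTH receptor to the cell surface, read 4614, 2979 and 4526. The ACTH receptor gene itself, Mc2r, had no single-gene probe set and was not analysed here.

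Of 30 matched genes of cholesterol synthesis, uptake, storage and transport, 20 were above the reference range (66.7%, against 31.9% of all named genes), 28 with Myh1 left out of the panel (93.3%, against 59.3%). Apoe, the apolipoprotein that adrenal cells make in quantity, read 15565, 15062 and 17414. Scarb1, the receptor that takes cholesteryl esters from high-density lipoprotein, was at 5886, 4477 and 6657. Soat1, which esterifies cholesterol for storage in lipid droplets, stood at 8525, 6402 and 5725, highest in control 1. Lipa, the lysosomal lipase that frees it, read 5689, 4511 and 5596, and its lysosomal partner Npc2 4104, 4504 and 4703. Abca1, which exports cholesterol, was at 4725, 4014 and 4836.

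Synthesis genes were mixed. Idi1, an isomerase of the mevalonate path, read 4221, 3597 and 3799, and Cyp51, a demethylase of lanosterol, 2210.4, 1912 and 2182. Dhcr7, which makes the last step to cholesterol, stood at 2310.4, 1193 and 1203, with control 1 apart from the other two. Sqle, the squalene epoxidase, was dim at 132, 146 and 118, and so was Mvd, the decarboxylase of mevalonate diphosphate, at 145, 45.1 and 99. Both passed the threshold without Myh1 in control 1 only.

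**Figure D3:**
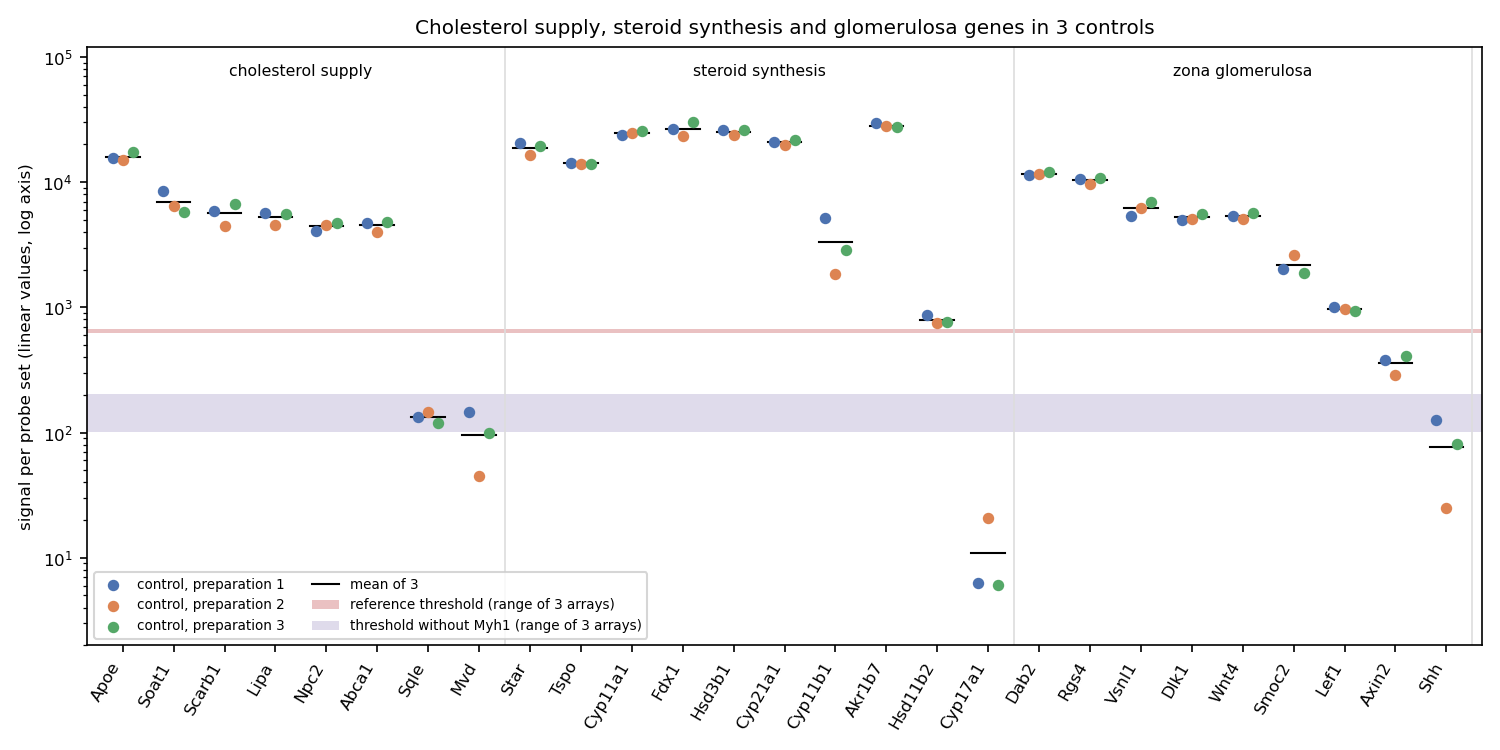
Signal per probe set (y axis, linear values on a log axis) of cholesterol, steroid and glomerulosa genes in the 3 controls (coloured points, 1 per preparation), with the mean as a black bar and shaded bands for the reference threshold with and without Myh1. Star, Cyp11a1, Fdx1, Hsd3b1, Cyp21a1 and Akr1b7 lie far above both bands in every control, Cyp11b1 spreads from 1839 to 5174, and Cyp17a1 lies below both bands.

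Of 29 matched transcription factors and regulators of the adrenal cortex, 14 were above the reference range (48.3%, against 31.9% of all named genes), 20 without Myh1 (69.0%, against 59.3%). Nr5a1 (SF-1), the factor that switches on the steroid genes, read 2238, 1860.3 and 2316. Its partner and repressor Nr0b1 (DAX-1) was at 1603, 1872 and 1855. Nr2f2, an orphan receptor of stromal and cortical cells, stood at 1893, 2025 and 2159, and Gata6, which supports steroid gene transcription, at 480.1, 565 and 476, under the reference range. The highest ranks of the list went to Cited2, Crem and Cebpb. Cited2, a coactivator of adrenal development, read 15394, 14376 and 15932, Crem, a cAMP-responsive factor, 8292, 7187 and 8521, and Cebpb, a factor of acute responses, 5570.1, 4748 and 4936. Giot1, a gonadotropin-inducible zinc finger factor, was at 2237, 1563 and 1792. The oestrogen receptors were dim, Esr1 at 10.2, 20.6 and 17.8 and Esr2 at 1.71, 47.2 and 8.31. Nr3c2, the receptor for aldosterone, read 210.0, 189 and 233, and Nr3c1, the glucocorticoid receptor, 725, 1051 and 684.

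The label of the cells was checked against markers of the zones. Of 19 matched glomerulosa markers, 13 were above the reference range (68.4%, against 31.9% of all named genes), with a median percentile of 89.9. Without Myh1 the count was 14 (73.7%, against 59.3%). Not all of the 13 are particular to the zone. Hsd3b1 is also in the steroid list, Nr4a2 in the immediate early list, and Agtr1a is prominent in vessels and kidney. Dab2, an adaptor protein restricted to this zone within the cortex, read 11494, 11580.5 and 12026. Rgs4, which shortens signalling by the Ang II receptor, was at 10598, 9599 and 10763, and Vsnl1, a calcium sensor raised in aldosterone-producing cells, at 5407, 6168 and 6914. Dlk1, a membrane protein of the outermost cortex in the rat, stood at 5023, 5109 and 5594, and Wnt4, the signal that maintains the zone, at 5316, 5106 and 5655. Lef1, a nuclear partner of beta-catenin, read 1015, 972 and 931. Axin2, its common target, fell under the range at 382, 289 and 406, as did Shh, a signal of subcapsular cells, at 125, 24.8 and 80.3. Oprk1 and Afp, the dimmest of the list, read 45.2, 76.8 and 75.8 and 22, 13.9 and 27.

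Fasciculata genes were bright as well. All 6 that matched passed the range without Myh1, against 59.3% of all named genes, and 4 with it (66.7%, against 31.9%). Akr1b8, a relative of Akr1b7 that near-identical sequence may make hard to separate from it, read 20054, 15953 and 18359. With Cyp11b1 and Mrap above the range, the markers of the 2 zones were not exclusive in these tubes. How many fasciculata cells were present was not tested.

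Chromaffin cells of the medulla were looked for through 23 matched markers. Of these, 2 were above the reference range (8.70%, against 31.9% of all named genes), 10 without Myh1 (43.5%, against 59.3%), and the median percentile was 58.9, against 65.9 for all named genes. Th, the tyrosine hydroxylase that starts catecholamine synthesis, read 716, 679 and 809. Pcsk1n, a granin-like protein, was at 3804, 2805 and 3145. Dbh, which makes noradrenaline, stood at 276, 326 and 348, Pnmt, which makes adrenaline, at 153, 301 and 344, and Chga, the main granin, at 263, 291 and 482. The signal of Th was similar in the 3 controls, and Pcsk2 and Snap25 were at 3.52, 23.3 and 3.2 and 11.5, 9.49 and 29.7.

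Endothelial transcripts were plainly present. Of 17 matched markers, 14 were above the reference range (82.4%, against 31.9% of all named genes), with a median percentile of 93.3. Kdr, the main receptor of vascular endothelial growth factor, read 6875, 7661 and 8335. Emcn, a sialomucin of capillaries, was at 6658, 7148 and 8649, Tek, the angiopoietin receptor, at 4915, 4899.8 and 5839, and Plvap, the protein of fenestral diaphragms, at 2129, 3034 and 2854. Pecam1, the junction protein of all endothelium, stood at 1349, 1372 and 1658. Vwf, the clotting factor of larger vessels, was dim at 51.9, 60.4 and 17.7. The summed signal of the list was 37937, 46273 and 49049 in the 3 controls, lowest in control 1.

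Some markers of capsule and blood-borne cells were bright. Of 17 capsule fibroblast genes, 8 were above the reference range (47.1%, against 31.9% of all named genes). Without Myh1 13 were (76.5%, against 59.3%). The highest ranks went to Mgp, a matrix protein that binds calcium, at 13288, 15082 and 14178, and Sparc, a collagen-binding protein, at 6702, 6437 and 7762. Col1a1, the chain of type I collagen, read 2092, 2442 and 2229, while Gli1, a hedgehog target of capsular progenitors, was at 167, 152 and 107. Of 18 macrophage markers, 6 were above the reference range (33.3%), a share near that of all named genes. Without Myh1 15 were (83.3%, against 59.3%). Lyz2, the lysozyme, read 5323, 8041 and 6831, Cd74, the invariant chain of class II molecules, 6735, 8634 and 9073, and Csf1r, the receptor that macrophages depend on, 254, 469.7 and 315. Summed macrophage signal was 22078, 29113 and 27448, again lowest in control 1. Of 8 red cell markers, 2 were above the reference range, against 31.9% of all named genes. Without Myh1 3 were, against 59.3%. Above the main range were Hbb, the beta chain of haemoglobin, at 16376, 17601 and 19228, and Hba-a3, at 2306, 3586 and 2699. Slc4a1, the anion exchanger of red cells, was under it with or without Myh1, at 83.7, 168 and 90.8.

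Of smooth muscle markers 4 of 13 were above the reference range (30.8%), near the 31.9% of all named genes. For lymphocyte, fat and nerve markers the counts were 1 of 12, 1 of 10 and 1 of 9. Without Myh1 smooth muscle had 8 of 13 (61.5%, against 59.3%), and lymphocyte, fat and nerve markers 5, 3 and 2. Acta2, the actin of smooth muscle, read 705, 998 and 711, Cd3e, a chain of the T cell receptor complex, 72.6, 253 and 205, and Adipoq, the hormone of fat cells, 23.5, 57.5 and 26.4. Sox10, the factor of Schwann cells, was at 62.6, 46 and 15.2. The part of each of these cell types in the levels of shared genes was not tested.

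Receptors for hormones formed a short list of bright genes and a long dim tail. Of 96 matched receptors and accessory proteins, 12 were above the reference range (12.5%, against 31.9% of all named genes). Leaving Myh1 out, 28 were (29.2%, against 59.3%). Below the 50th percentile lay 63, against 4990 of 14217 named genes. All 3 angiotensin receptor genes were among the 12. Agtr1b, the type 1 receptor form that is prominent in the rat adrenal, read 2559, 3079.8 and 2708. Agtr1a, the form prominent in vessels and kidney, was at 1634, 1661 and 2223, and a further probe set of it at 439, 498 and 416. Agtr2, the type 2 receptor, stood at 1786, 1568 and 2176. The controls lay close together for Agtr1b, and control 3 was the highest for Agtr1a and Agtr2. Mas1, a receptor for a shorter angiotensin peptide, was dim at 5.52, 61 and 33.4. Atp6ap2, the prorenin receptor and a part of the proton pump, read 3285, 2992 and 3218.

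The highest ranks of the list went to other receptors. F2r, the thrombin receptor, read 8440.3, 7306 and 7694, and S1pr1, the sphingosine 1-phosphate receptor of endothelium and lymphocytes, 5423, 6687 and 5940.2. Prlr, the prolactin receptor, stood at 4376, 2932 and 3938, lowest in control 2. Npr1, the receptor through which atrial natriuretic peptide restrains aldosterone, was at 2729, 2834 and 3212. Lpar1, a lysophosphatidic acid receptor, read 1802, 1878 and 1848, and Ghr, the growth hormone receptor, 1311, 1106 and 916. Chrm3, a muscarinic receptor, was under the reference range at 299.6, 523 and 442, and so was Avpr1a, the vasopressin receptor of smooth muscle and adrenal, at 236, 216 and 147. Galr1 and Ptger2, the dimmest, read 4.34, 13.1 and 20.4 and 10.2, 27 and 6.9.

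Receptors for growth factors and cytokines passed the range in 14 of 37 cases (37.8%, against 31.9% of all named genes). Beside the endothelial Kdr and Flt1, Il6st, the shared chain of the interleukin 6 family receptors, read 4770.2, 7193 and 7026 and Tnfrsf1a, the tumour necrosis factor receptor, 4988, 5089 and 5109. Igf1r, the insulin-like growth factor receptor, was at 2819.6, 2325 and 2808 and Tgfbr1, a receptor of transforming growth factor beta, at 4026, 3702 and 4556. Kit and Lgr5, receptors of stem cells, were dim, at 9.25, 20.7 and 19.5 and 36.1, 19.5 and 8.43. Of 34 Wnt, hedgehog and Notch genes, 11 were above the range (32.4%), near the share of all named genes. Without Myh1 23 were (67.6%, against 59.3%). Ctnnb1 (beta-catenin), the mediator of Wnt signals, read 20049.7, 20296 and 21563 on its brightest probe set.

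Potassium channels, which set the membrane potential of glomerulosa cells, gave few bright signals. Of 69 matched genes, 4 were above the reference range (5.80%, against 31.9% of all named genes), 10 without Myh1 (14.5%, against 59.3%). Kcnk3 (TASK-1), the leak channel, read 1283, 1682 and 1292 on its brightest probe set, but its other probe sets gave 171, 187 and 90.3 and 183, 147 and 53.4. Kcnk9 (TASK-3), its partner in the rat glomerulosa, was at 90.7, 195 and 28.3, and Kcnj5 (GIRK4), mutated in human aldosterone-producing adenomas, at 45.6, 146 and 72.6. Both lay below the threshold in every control even without Myh1. Kcns3, a silent subunit that modifies delayed rectifiers, stood at 798, 1218 and 1014, Kcne4, an accessory subunit, at 773, 903 and 858, and Kcnma1, the large-conductance calcium-activated channel, at 699, 871 and 721. Those 3 were highest in control 2, as were 18 of the 26 potassium channel genes tested for differences between preparations, against 3796 of all 10381 named genes tested. Of the controls, control 2 also had the highest median signal over all probe sets, 173 against 130.3 and 142, and the part of that shift in the count was not tested.

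Among calcium genes, 9 of 76 were above the range (11.8%, against 31.9% of all named genes). Cacna1h (Cav3.2), the T-type channel of glomerulosa cells, read 1388, 1353 and 1385, nearly identical in the 3 controls, although another probe set gave 113, 219 and 97.5. Of the L-type channels, Cacna1c (Cav1.2) stood at 521, 503 and 456 and Cacna1d (Cav1.3) at 342, 386 and 297, under the main range but above the one without Myh1. Cacna1g (Cav3.1), the other T-type channel, was dim at 17.1, 40 and 23.2. Calm2, a calmodulin gene, read 10854, 8571 and 10233 and Atp2a2, the pump that refills the endoplasmic reticulum, 4115, 3627 and 3458. Atp2b1, a calcium pump of the plasma membrane, stood at 1966, 2086 and 2275, and Itpr1, a store release channel gated by inositol trisphosphate, at 822, 639 and 723.

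Sodium, chloride and proton transport had 11 of 67 genes above the range (16.4%, against 31.9% of all named genes). Atp1b1, a sodium pump subunit, read 5185, 5282 and 5712, Fxyd6, a modulator of the pump, 5396, 5522 and 5533, and Slc12a2, the sodium, potassium and chloride cotransporter NKCC1, 3829, 4364 and 4293. Of 93 G proteins, lipases and kinases of receptor signalling, 27 were above it (29.0%), near the share of all named genes. Without Myh1 49 were (52.7%, against 59.3%). Gnas, the G protein that stimulates adenylyl cyclase, read 19112, 17811 and 20568, Gnb1, a beta subunit, 13961, 13318 and 11607, and Prkar1a, the regulatory subunit that restrains protein kinase A, 10386, 8715 and 10483. Plcb1, a phospholipase that makes inositol trisphosphate, was at 1999, 1956 and 1866. Of 20 phosphodiesterase genes, 4 were above the range, against 31.9% of all named genes, with the highest ranks for Pde2a, a cAMP-degrading enzyme that cGMP stimulates, at 8498, 8877 and 8957 and Pde4b, a cAMP-specific form, at 1848, 2124 and 1764.

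**Figure D4:**
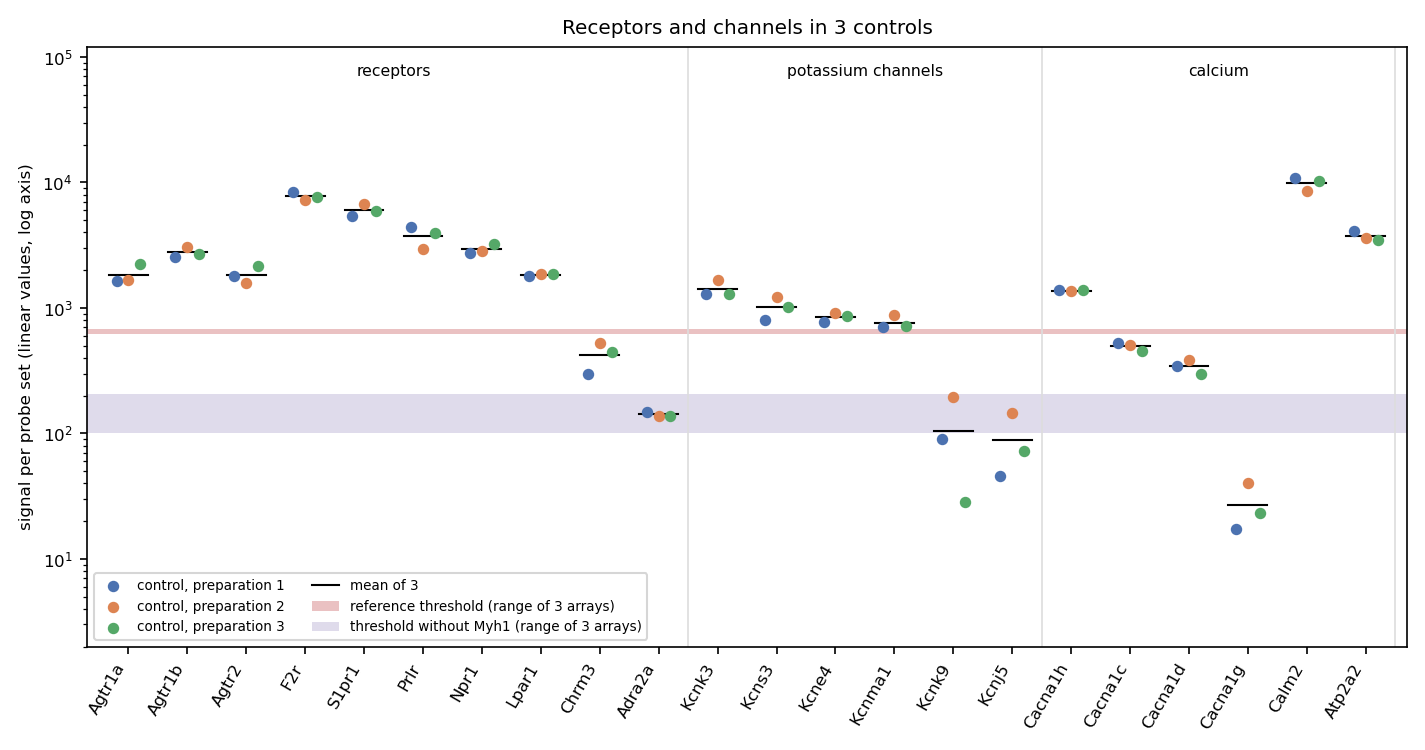
Signal per probe set (y axis, linear values on a log axis) of receptor, potassium channel and calcium genes in the 3 controls (coloured points), with the mean as a black bar and shaded bands for the reference threshold with and without Myh1. The 3 angiotensin receptor genes, Kcnk3 and Cacna1h lie above the upper band in every control, and the points of Kcnk9 and Kcnj5 lie within or below the lower band, each under the threshold of its own array.

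Immediate early genes were bright in cells that had received no stimulus. These genes are transcribed within minutes of a signal and their messages are short-lived. Of 29 matched members, 27 were above the reference range (93.1%, against 31.9% of all named genes). Of these, 18 reached the 95th percentile and 7 the 99th, against 1210 and 211 of 14217 named genes. Egr1, a zinc finger factor, read 15529, 13256 and 16308. Fos, a subunit of AP-1, was at 11527, 10109 and 12599, Fosb, its relative, at 13127, 12350.3 and 14781, and Jun, their partner, at 11904, 10812 and 12091. Dusp1, the phosphatase that ends MAP kinase signals, stood at 11605, 11971 and 13215, and Ier3, a stress-induced survival gene, at 14495, 14703 and 14014. The 3 controls lay close together for these. Nr4a1, an orphan receptor that drives Cyp11b2, read 6084, 4906 and 8507, and Nr4a2, its relative, 1529, 1536 and 2343, both highest in control 3. Egr3, at 162, 110.0 and 159, and Fosl2, at 471, 558 and 592, were the ones under the range.

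Heat shock and folding genes were likewise bright, with 23 of 25 above the reference range (92.0%, against 31.9% of all named genes). Hspa1a, the inducible heat shock protein 70, read 21208, 21548 and 22377. Hspb1, a small chaperone, was at 21489, 23936 and 19964, Hspd1 at 26422, 26032 and 28136 and Hspa5, the chaperone of the endoplasmic reticulum, at 16069, 14217 and 13576. Hspa1l, a form known from testis, was dim at 40.2, 56 and 11.1. No array of intact glomerulosa or of cells before incubation was analysed here, so how these levels compare with undispersed tissue was not tested.

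Antioxidant enzymes were above the range in 34 of 41 cases (82.9%, against 31.9% of all named genes). Mgst1, a glutathione transferase of membranes, read 20927, 17400.4 and 20081, Txn1 (thioredoxin) 18931, 17275 and 20126, Gpx1 (glutathione peroxidase) 18527, 17744 and 19568 and Sod1 (superoxide dismutase) 17470.0, 15995 and 19659. Gsta1, a soluble glutathione transferase, stood at 16892, 14784 and 16615, and Gsta3, its relative, at 3.65, 10.6 and 14.2. Histocompatibility genes passed in 13 of 19 cases (68.4%, against the same 31.9%). B2m was at 27249, 27019 and 28691 and RT1-Da, a class II chain, at 5571, 6656 and 6657, and since the RT1 genes are near copies their probe sets may share signal.

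The respiratory chain and ATP synthase were above the range in 74 of 88 cases (84.1%) and proteasome subunits in 41 of 44 (93.2%). Of all named genes 31.9% were. COX2 read 36676, 37854 and 40329, Atp5f1b, the catalytic subunit of ATP synthase, 18126, 16304 and 18762, and Psma6, a core subunit of the proteasome, 13301, 12243 and 13019.7. Forms known from other tissues were dim, Cox6a2 of muscle at 7.35, 137 and 10.2 and Cox7b2 of testis at 17, 65.3 and 2.58. Of 48 ribosomal protein genes, 38 were at or above the 99th percentile, against 211 of 14217 named genes, and 5 lay below the 50th. Rpl30, which has 1 probe set, read 107, 54.9 and 85.4.

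Probe sets of 1 gene often disagreed. Of 4525 genes with several probe sets, 810 were above the reference range by their brightest one while their dimmest lay below the 50th percentile. Ctnnb1 read 20049.7, 20296 and 21563 on its brightest probe set and 6.56, 28.2 and 5.21 on its dimmest. Fos read 11527, 10109 and 12599 and 12.1, 79 and 16.1 on its pair, and Gnas 19112, 17811 and 20568 against 146, 163 and 149.9. A dim signal from a single probe set therefore does not show that a gene was silent.

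Levels differed between the 3 cell preparations for a small share of genes. All 9 arrays were fitted with limma, with the group as a fixed term, and the preparations were compared by a moderated F-test with Benjamini-Hochberg adjustment. At an adjusted p under 0.05, 639 of 18625 probe sets tested (3.43%) differed, and the highest control was a median of 1.49 times the lowest among them. The count was 170 (0.913%) with the 6 stimulated arrays alone, of which 156 were also among the 639. It fell to 2 when the fit took no account of the trend of variance with signal, and rose to 1680 when arrays were scaled to a common median. Without control 1 it was 187 and without control 2 405.

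The controls, which the 6-array test did not use, can be set beside it. For 139 of its 170 probe sets (81.8%) the preparation with the highest stimulated mean was also highest among the controls, against 45.6% of all probe sets tested. For 112 (65.9%) both the highest and the lowest preparation were the same, against 26.0% of all tested.

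Xist, the RNA that coats the inactive X chromosome of female cells, had the smallest p. Its controls read 3.67, 20.4 and 1219.8, its Ang II tubes 5.41, 4.43 and 1438 and its potassium tubes 6.84, 1.87 and 1032, in the order of preparations 1 to 3 (limma F-test, adjusted p = 1.4e-06; 4e-05 from the stimulated arrays alone). All 3 tubes of preparation 3 lay over 1000 on this probe set, and the highest tube elsewhere was control 2. The other 3 probe sets of Xist were also highest in preparation 3 in every group, the next brightest at 76.2, 134 and 270.3 in the controls. Y-linked genes did not divide the preparations in that way. Eif2s3y read 1976, 1525 and 1422 in the controls (adjusted p = 0.054) and Uty 901, 899 and 882 (adjusted p = 0.90). Whether Eif2s3y and Uty probes also bind the X-linked copies was not tested.

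Of the other genes among the 20 of smallest p, several were highest in preparation 2. Ccl4, a chemokine of macrophages, read 1798, 3928 and 2543 in the controls (adjusted p = 1.7e-05), and Ccl3, its neighbour in function, 1899.7, 3099 and 1791 (adjusted p = 0.00028). Ebi3, a cytokine subunit, stood at 862, 1578 and 1086, and Lgals3, a galectin of macrophages, at 1265, 2109 and 1552. For these 4 genes preparation 2 was the highest in each of the 3 groups.

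Several others were highest in preparation 1 in each of the 3 groups. Cyp11b1 followed the preparation (adjusted p = 0.00047; 0.0021 from the stimulated arrays alone), with Ang II tubes at 4552, 2467 and 2895 and potassium tubes at 5413, 3095 and 3045 beside the controls given above. Dhcr7 was at 2310.4, 1193 and 1203 (adjusted p = 7.5e-05). Frzb, a secreted inhibitor of Wnt signals, read 3683, 2011 and 2055 (adjusted p = 1.7e-05). Hao2, a peroxisomal hydroxy acid oxidase, stood at 5769, 3352 and 4895, Vnn1, a pantetheinase, at 1325, 692 and 900.4, and Entpd5, a nucleotidase, at 2968, 1543 and 2423. Of the shared Cyp11b probe sets, neither bright one passed the test (adjusted p = 0.40 and 0.071), and the difference was called only on the probe set of Cyp11b1 alone.

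Mx2, an interferon-induced GTPase, also followed the preparation and read 657, 252 and 69.6 in the controls (adjusted p = 0.0001). RT1-Ba, a class II histocompatibility chain, was at 1588, 2189 and 3449 (adjusted p = 0.0001), highest in preparation 3. Dbp, a clock output factor, read 896, 717 and 446 (adjusted p = 0.00047), and Nr1d1, a repressor of the clock, 1799, 1449.8 and 1177 (adjusted p = 0.0037), both lowest in preparation 3. Inhba, the activin subunit, stood at 1658, 2264 and 1154. The remaining genes of the 20 were Iscu, Eepd1, Cemip2, Actn1 and Lrrc32, with ratios of highest to lowest control between 1.39 and 2.29.

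**Figure D5:**
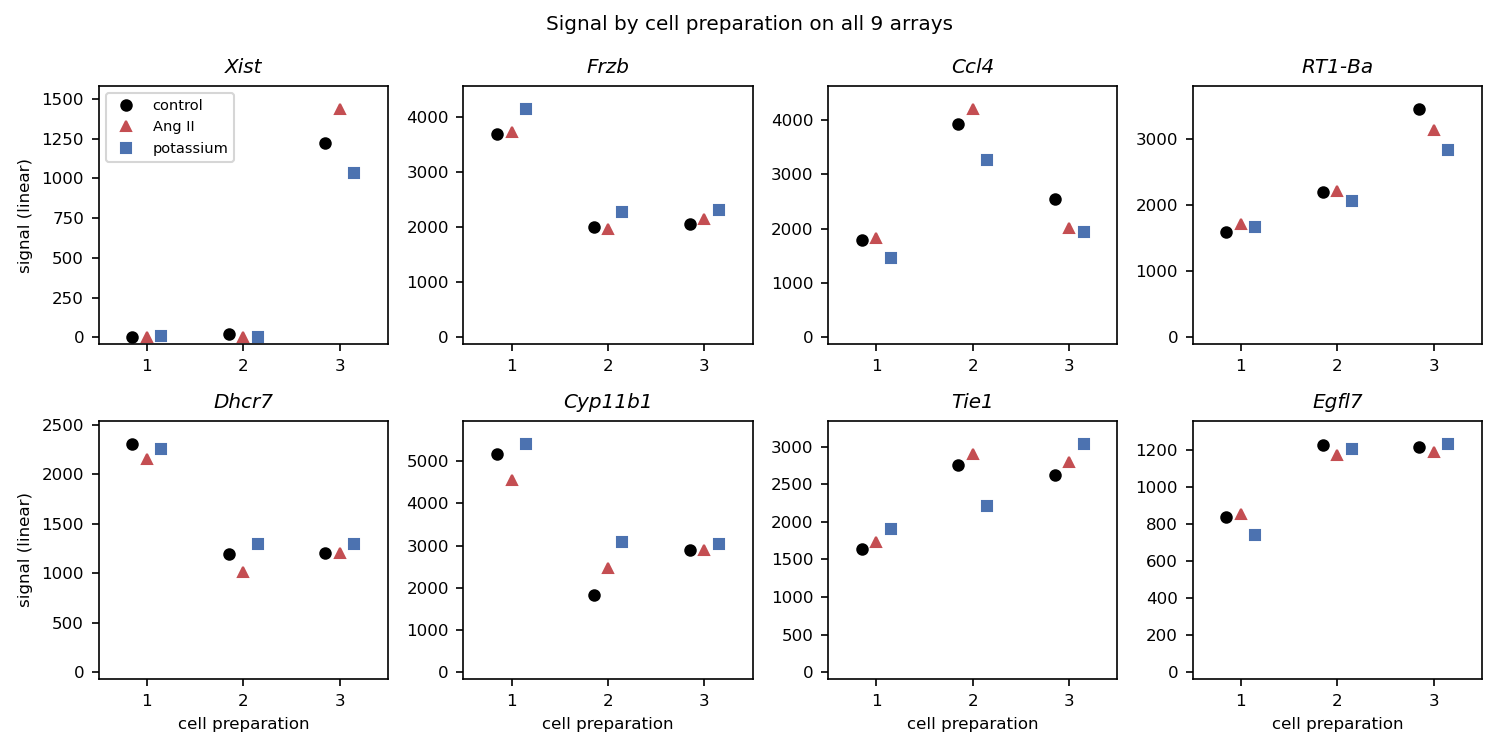
Signal (y axis, linear) by cell preparation (x axis) for 8 genes, with black circles for control, red triangles for Ang II and blue squares for potassium. The 3 tubes of a preparation lie near each other, Xist is near 0 in preparations 1 and 2, and Tie1 and Egfl7 are lowest in preparation 1.

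Some markers of endothelium, macrophages and fibroblasts moved with the preparation. Of medulla, smooth muscle, lymphocyte and nerve markers tested, 2 of 14, 2 of 12, 1 of 9 and 0 of 5 were called. For red cell and fat markers the counts were 2 of 4 each. Of 16 endothelial markers tested, 8 differed between preparations, against 3.43% of all probe sets, and 3 did so on the stimulated arrays alone. All 8 were lowest in control 1. Tie1, an endothelial receptor, read 1638, 2755 and 2624 (adjusted p = 0.004), and Egfl7, an endothelial secreted factor, 836, 1224 and 1216 (adjusted p = 0.0037). Of all 16, 14 were lowest in preparation 1 among the controls, 16 among the Ang II tubes and 15 among the potassium tubes. Over all named genes tested, control 1 was the lowest for 3564 of 10381.

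Of macrophage and fibroblast markers, 5 of 16 and 5 of 17 were called, against 3.43% of all probe sets. On the stimulated arrays alone 2 in each list were called. Of the 5 macrophage markers, 4 were lowest in control 1, and Cd14, a receptor for bacterial lipopolysaccharide, in control 3. Lyz2 (adjusted p = 0.0013) and Cd74 (adjusted p = 0.0035) had the smallest p among macrophage markers, Col3a1, a fibrillar collagen, read 3544, 3905 and 4662 (adjusted p = 0.0043), and all 5 fibroblast genes called were lowest in control 1. Antioxidant genes ran the other way, with 9 of 38 called and 8 of those highest in control 1, such as Mt2A, a metallothionein, at 8556, 7321 and 6399 and Cat, the catalase, at 5701, 3756 and 4221. Control 1 was the highest for 25 of the 38, and for 28 of 44 proteasome genes. It was the highest for 32 of 86 respiratory chain and ATP synthase genes and 3300 of 10381 named genes. Of 19 steroid genes tested, 4 were called: Cyp11b1, Mrap (adjusted p = 0.0095), Scarb1 (adjusted p = 0.015) and Cyb5a, a donor of electrons to P450 enzymes, at 7524, 5977 and 6496 (adjusted p = 0.041). All 4 were lowest in control 2. So were 14 of all 19 steroid genes tested, 72 of the 100 genes of highest rank and 4040 of 10381 named genes. Preparation 2 was lowest for 6 of the 19 among the Ang II tubes and for 9 among the potassium tubes. Smoc2, a matrix protein, was the only glomerulosa marker of 17 called, at 2013, 2598 and 1895 (adjusted p = 0.0017). The part of the markers of other cell types in the differences of steroid and antioxidant genes was not tested. None of the 30 genes of highest rank differed between preparations by limma at an adjusted p under 0.05, and 2 did at an unadjusted p under 0.05.

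The stimulated arrays were set against the baseline. Each stimulus was compared with control by limma, with the preparation as a block. Ang II raised 306 of 18625 probe sets (1.64%) and lowered 98 (0.526%), 2.17% in all, and potassium raised 521 (2.8%) and lowered 483 (2.59%), 5.39% in all. When arrays were scaled to a common median these became 424 and 30 for Ang II, and 719 and 180 for potassium, with array medians that differed from the controls by -0.12 on the log2 scale for both stimuli. Without the trend of variance the totals were 32 and 256, and without any 1 control they were 240 to 278 and 602 to 648. Of the 30 genes of highest rank in the controls, 0 were called with either stimulus, and 2 had an unadjusted p under 0.05 with each. Both comparisons share the same controls.

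Within the steroid list, Star, Scarb1 and Mrap were called with each stimulus, 3 of 19 tested. Over all probe sets tested, 2.17% were called with Ang II and 5.39% with potassium. Star rose to 23859, 22825 and 22441 with Ang II (log2 difference 0.29 ± 0.06 SE, adjusted p = 0.023) and to 24650.0, 23429 and 23527 with potassium (0.34 ± 0.06, adjusted p = 0.004). Scarb1 rose by 0.46 and 0.56 on the log2 scale (adjusted p = 0.0018 and 0.00017), and Mrap by 0.34 and 0.44 (adjusted p = 0.044 and 0.0051). For Cyp11a1 the differences were -0.01 and -0.06, and for Cyp11b1 0.08 and 0.29, none of which passed the test. The probe set shared by all 3 Cyp11b genes rose with potassium to 5322, 5936 and 5691 (log2 difference 0.49 ± 0.10 SE, adjusted p = 0.0068).

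Immediate early genes, bright at baseline, changed further. Of 29 tested, Ang II raised 15 and lowered 1, and potassium raised 9 and lowered 5. Over all probe sets tested, Ang II raised 1.64% and lowered 0.526%, and potassium raised 2.8% and lowered 2.59%. The median log2 difference of the list was 0.32 with Ang II and 0.05 with potassium, against -0.03 for all named genes with each. Egr1 rose with Ang II to 20586, 18786 and 20368 and fell with potassium to 12719, 12021 and 13358 (adjusted p = 0.0011 and 0.027). Nr4a2 rose to 2642, 3544 and 3099.8 with Ang II and to 7888, 6095 and 6624 with potassium (adjusted p = 0.0054 and 5.5e-07). Among glomerulosa markers tested, Nr4a2 rose with both and Wnt4 fell with Ang II, to 4480.1, 4332 and 4049 (adjusted p = 0.022). Hhex, a homeobox factor, read 2594, 1451 and 2223 at baseline and 8982, 7205 and 7893 with potassium (adjusted p = 8.5e-09), and Giot1 reached 8968, 7847 and 7429 (adjusted p = 8.5e-09).

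Of 46 receptor genes tested by limma, Ang II changed 0, with 7 at an unadjusted p under 0.05, against 2.17% of all probe sets called. Potassium raised 4 of the 46 and lowered 1, against 5.39% of all probe sets called in either direction. Sstr2, a somatostatin receptor, rose from 458, 383 and 621 to 649, 799.9 and 1008 with potassium (adjusted p = 0.004). Of 26 potassium channel genes, 2 were called with potassium and 0 with Ang II, where 4 had an unadjusted p under 0.05. Potassium lowered Kcns3 (adjusted p = 0.017) and raised Kcnk5, an acid-sensitive leak channel, from 272, 337 and 252 to 432, 442 and 577 (adjusted p = 0.02). Agtr1b differed by -0.05 and 0.16 on the log2 scale with Ang II and potassium, neither past the threshold. None of the 16 endothelial, 16 macrophage or 17 fibroblast markers was called with either stimulus, and at an unadjusted p under 0.05 there were 0, 1 and 0 with Ang II and 1, 5 and 2 with potassium.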

How the data were processed

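The authors deposited 1 linear intensity per probe set and array for 9 arrays. Per the submitters' processing notes GCOS, the array maker's software, was used, while the sources used here do not state its background and summary settings. The deposited intensity values had a trimmed mean (2% off each end) of 500.2 on every control. Detection calls were not used here. Of 31099 probe sets, 57 controls were left out. Symbols came from the platform annotation, updated through RefSeq genes of GRCr8 (20758 by Entrez identifier, 2 by accession, 66 unchanged), with 436 probe sets of several symbols and 9780 of none left unnamed.

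Members and gene lists were chosen with earlier results of these data known. Named genes were drawn from the 30 of highest rank, the 6 highest and 2 lowest of each list, genes of known role in this zone, defining markers of other cell types, the 20 of smallest p between preparations, and up to 4 called members of each list. Members named beyond that rule were chosen after their values were seen. Ranks and reference counts carry no test. For tests, log2(signal + 16) of the 18625 probe sets with a mean above the 40th percentile was fitted in limma 3.58.1 (R 4.3.3) with group and preparation as fixed terms, an intensity trend and Benjamini-Hochberg adjustment, leaving 4 residual degrees of freedom beside 10.7 of the prior. The preparations pair the tubes by design, and the 9 same-preparation pairs of arrays correlated at 0.107 to 0.270 in their deviations from the group means, against -0.21 to 0.036 for the other 18. Tables and figures were made with Python 3.11.15. The fit was also run on simulated data, from which no result is given here. Alternatives covered the reference panel, choice of probe set, pseudocount, filter, scaling, trend, block and each control left out.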

Additional observations from a re-analysis of the deposited data

How the results depend on the processing

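The count of probe sets above the reference range, 6188, was 13416 at the panel's 90th percentile, 186 at its highest probe set and 13373 without Myh1, and it stayed within 1.5 times under the other settings. At the panel's highest probe set 7 steroid, 1 glomerulosa, 0 medulla, 0 endothelial, 2 immediate early and 5 heat shock genes were above, and at the 90th percentile or without Myh1 10 medulla genes were. With the median of all probe sets of a gene, median percentiles were 95.8 for steroid, 80.5 for glomerulosa, 46.4 for medulla, 84.0 for endothelium, 94.99 for immediate early and 97.3 for heat shock genes. Leaving out each control in turn gave 89.7 to 91.7 for glomerulosa, 52.3 to 57.8 for medulla and 98.0 to 98.2 for heat shock genes. The 30 highest-ranking genes shared 26 to 30 members with every alternative ranking.

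Calls between preparations (639) were 1680 with median scaling, 2 without the intensity trend, 170 on the stimulated arrays alone and 187 to 534 without single controls. Ang II calls (404) were 32 without the trend and 240 to 278 without single controls. Potassium calls (1004) were 256 and 602 to 648. With no replicate block, so without the pairing by preparation, they were 193 and 499.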

Other observations

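Myh1 was the only gene used as a silent reference that passed the threshold, at 12314, 12981 and 13726 on its brightest probe set, and all 5 of its probe sets passed the threshold in every control. Other skeletal muscle genes did not: Ckm, the muscle creatine kinase, read 97.7, 16.9 and 112, and Myh4, a further fast myosin, 17.1, 18.4 and 22.2. What the Myh1 probe sets bind in these cells was not tested.

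Xist signal was confined, among the 3 preparations, to all 3 tubes of preparation 3 on its brightest probe set, while the Y-linked Eif2s3y was above the reference range in all 3 controls. The sources used here do not state the sex of the rats, and the cause was not tested.

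Limits are few replicates (3 controls), a tissue mixture, probe sets that disagree within a gene, a signal floor at which control 2 differs from the others, and a reference panel whose 95th percentile depends on 1 gene.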
